A study of Homo sapiens with 24 samples.

Results

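The transcripts of 9 genes of the G1 phase of the cell cycle were followed in HCT116 colorectal cancer cells: the D-type cyclins CCND1, CCND2 and CCND3, their kinases CDK4 and CDK6, the E-type cyclins CCNE1 and CCNE2, their kinase CDK2, and the phosphatase CDC25A. The genes were chosen by symbol, as a functional group, from the 33113 genes of the count table, of which 19452 had a count in any library. Of the 9 genes, 8 averaged at least 10 counts per library and CCND2 did not. The 24 polyadenylated RNA libraries fell into 8 groups of 3 biological replicates: parental HCT116 and its oxaliplatin-resistant derivative HCT116 oxpl-R, each as untreated control, with E1A, with oxaliplatin, and with E1A + oxaliplatin. HCT116 is an established epithelial line from a human colorectal carcinoma, and HCT116 oxpl-R was derived from it by repeated exposure to high doses of oxaliplatin. Cells of both lines, the controls included, carried the TetOn-E1A construct, in which doxycycline switches on the adenoviral E1A gene. Doxycycline was given at 0.5 µg/mL from 3 h before oxaliplatin, and oxaliplatin at 25 µM for 24 h, so the action of E1A and that of doxycycline cannot be told apart here, and the level of the E1A transcript itself was not analysed here.

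In textbook terms, D-type cyclins bind CDK4 and CDK6 and, with cyclin E and CDK2, phosphorylate the retinoblastoma protein RB, which then releases the E2F transcription factors that switch on the genes of DNA synthesis. CDC25A removes the inhibitory phosphates from CDK2 and is itself degraded when checkpoint kinases sense damaged DNA. Cyclin E, CDK2 and CDC25A transcripts are among those driven by E2F. E1A binds RB and its relatives and frees E2F without any cyclin, and oxaliplatin is a platinum drug that forms adducts with DNA.

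The libraries held 24838095 to 37927720 estimated counts on genes, with a median of 29382753. Levels are given as CPM, counts relative to the normalized library size, and changes as log2 fold changes ± SE. A gene was called changed at an adjusted p below 0.05 in edgeR's quasi-likelihood test across all genes. With 3 replicates a group, the tests measure the spread between these cultures. HCT116 oxaliplatin replicate 3 and HCT116 E1A + oxaliplatin replicate 1 were more like each other (r = 0.985 across genes) than like their own groups (r between 0.964 and 0.971), and 9 of the 24 libraries were most like a library of another group. For part of the results that rest on either of the first pair, values without both are also given, an alternative chosen after seeing the data. Of 9 colorectal epithelial markers in the table, 7 were at 1 CPM or more in every library (KRT20 and LGALS4 were not), with a summed level of 5438 to 16840 CPM, whereas leukocyte markers summed to 0.823 to 7.04 CPM, endothelial markers to 0.0587 to 0.912 CPM and fibroblast markers to 14.5 to 54.4 CPM. Of the last, COL1A1 was at 13.0 to 40.3 CPM and COL1A2 at up to 13.0 CPM. In bulk RNA, fewer cells in a phase of the cycle and less RNA per cell cannot be told apart.

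Promoter sequence of CDC25A is shown because its transcript carried the change that differed between the lines and with E1A, and that of CCNE1, a gene of the same step, because its transcript passed no test with all libraries. Both run from 250 bases before to 50 bases after the RefSeq start on GRCh38.p14 and are written 5′ to 3′ on the strand of the gene, at chr3:48188368-48188667 (minus strand) and chr19:29811741-29812040 (plus strand). Capitals mark the letters of an E2F site.
CDC25A: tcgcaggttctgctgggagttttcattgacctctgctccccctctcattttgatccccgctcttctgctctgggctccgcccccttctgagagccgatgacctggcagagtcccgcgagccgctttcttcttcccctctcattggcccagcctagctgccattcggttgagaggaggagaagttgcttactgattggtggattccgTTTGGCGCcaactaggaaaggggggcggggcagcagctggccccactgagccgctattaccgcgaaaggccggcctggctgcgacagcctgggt
CCNE1: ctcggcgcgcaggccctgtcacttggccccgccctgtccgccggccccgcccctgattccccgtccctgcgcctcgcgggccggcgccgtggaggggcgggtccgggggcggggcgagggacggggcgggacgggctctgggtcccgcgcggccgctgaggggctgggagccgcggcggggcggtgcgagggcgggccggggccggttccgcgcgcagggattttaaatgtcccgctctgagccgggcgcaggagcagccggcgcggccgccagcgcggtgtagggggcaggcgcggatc
The letters TTTCCCGC, TTTCGCGC, TTTGCCGC and TTTGGCGC were searched on both strands of the promoters of the 5 members in the table (CCND3, CCNE1, CDK4, CDK6 and CDC25A), which has no entry for CCND1, CCND2, CCNE2 or CDK2. They occurred once, in CDC25A, beginning at position -44 relative to the start, and 3.31% of 35116 promoters of the same length held one of them. The letters TTTGAA, of the cell-cycle homology region, were in none of the 5, against 15.2% of all promoters. A match of letters is a description and not a measured binding site.

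In untreated HCT116 cells, the level per length of transcript placed CDK4 highest, at 279 ± 23.0 CPM per kb of its longest transcript (SD, n = 3), followed by CCND1 at 107 ± 7.55, CDK2 at 78.2 ± 4.53 and CCNE1 at 40.3 ± 3.47. The level per kb was 25.7 ± 3.86 for CCND3 and 19.7 ± 1.99 for CDC25A, a pair whose order turned when the length was that of all exons together (10.7 and 18.3 CPM per kb). CCNE2 at 6.95 ± 0.21 and CDK6 at 5.83 ± 0.63 CPM per kb were the lowest of the members with counts, and their order turned likewise (5.26 and 5.55 by all exons). The kinase CDK4 therefore stood far above CDK6, the other partner of the D cyclins, by either length. On GRCh38, CDK4 lies at chr12:57747727-57756013 on the minus strand and overlaps TSPAN31 and MARCHF9, and CDK2 at chr12:55966781-55972789 on the plus strand overlaps PMEL. CCND1 at chr11:69641156-69654474 overlaps LTO1, CCNE2 overlaps INTS8 and NDUFAF6, and CDK6 overlaps CDK6-AS1. Whether the counting used strand is not given in the sources used here, and without it reads of overlapping genes on opposite strands cannot be told apart.

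**Figure D1:**
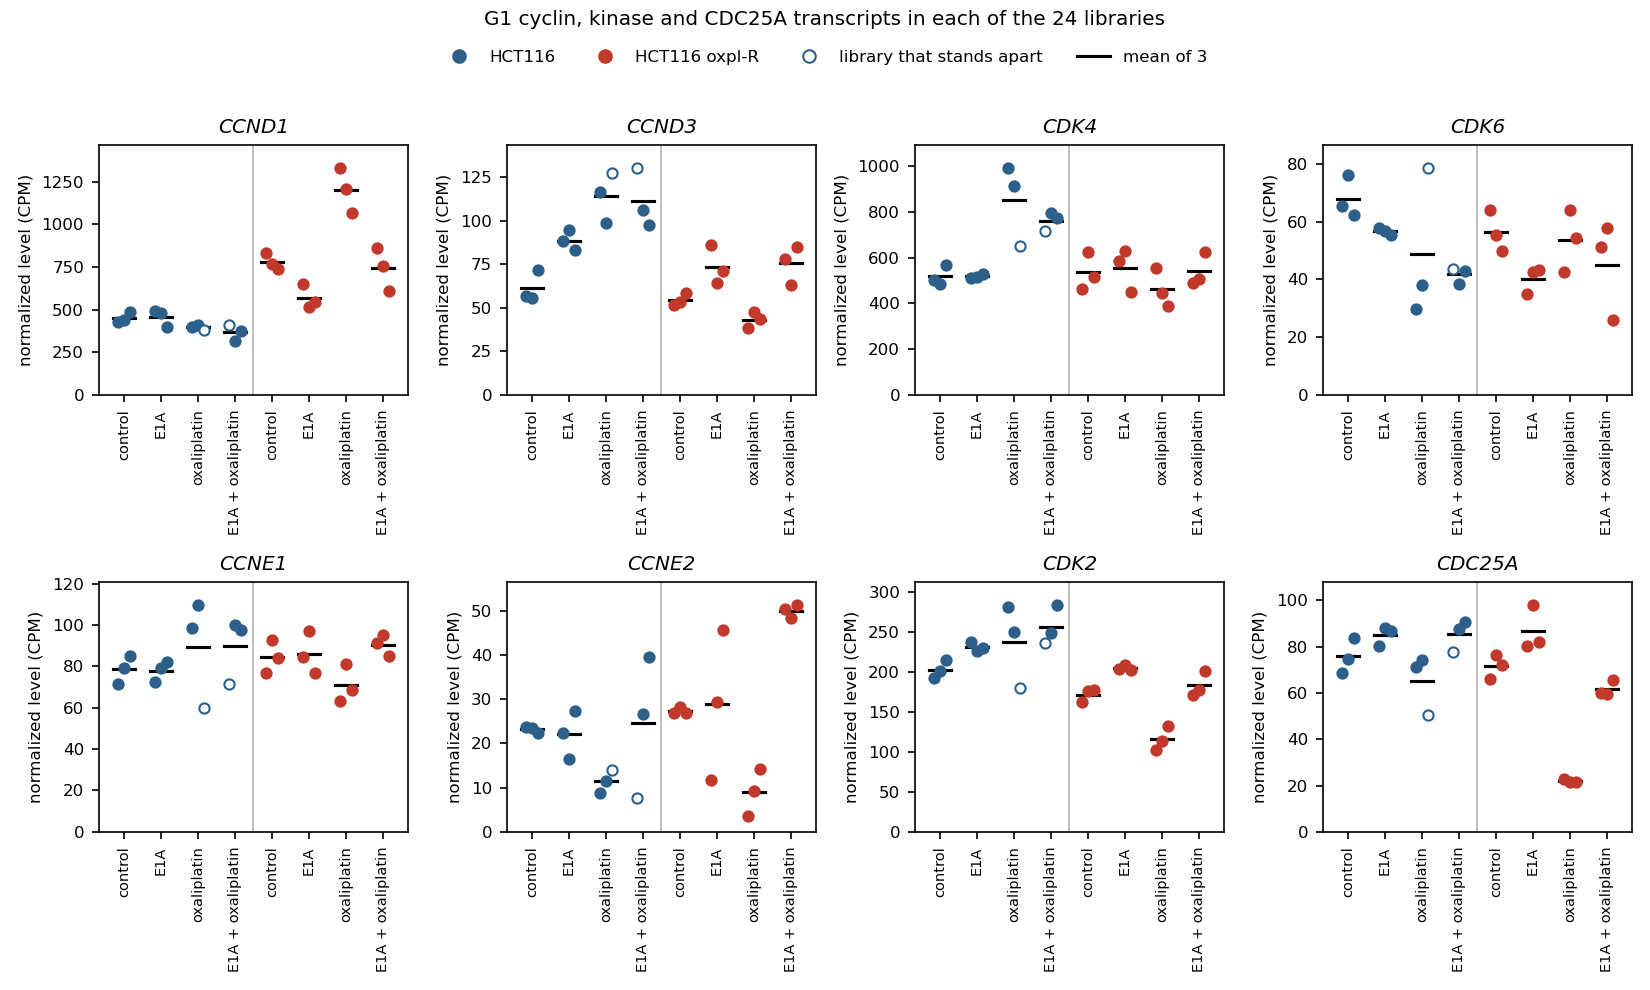
Normalized level (CPM, linear axes from 0) of 8 members in each library, by group, with HCT116 in blue, HCT116 oxpl-R in red, the pair of libraries that stand apart as open points and the mean of 3 as a bar. CCND1 is at 516 CPM or more in every HCT116 oxpl-R library and at 489.9 CPM or less in every HCT116 library, and CDC25A is at 21.7 to 23.0 CPM in HCT116 oxpl-R with oxaliplatin.

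Most calls of the 9 members came from comparisons that hold the oxaliplatin group of HCT116 oxpl-R. Oxaliplatin alone called 2 of the 9 members in HCT116, where 17.4% of 19452 genes were called, and 4 of the 9 in HCT116 oxpl-R, where 6.11% were. Induction of E1A called 5 of 9 members in HCT116 oxpl-R cells under oxaliplatin, where only 1.39% of genes were called. In the other 3 E1A comparisons edgeR called none of the 9, in HCT116 (0.432% of genes called), in HCT116 with oxaliplatin (0.0874%) and in HCT116 oxpl-R (0.226%). At an unadjusted p below 0.05 there were 1, 2 and 2 members in these 3 comparisons, and DESeq2 called 0 in each. Between the lines, 1 of 9 members was called in untreated cells (14.1% of genes), 5 of 9 under oxaliplatin (25.6%) and 4 of 9 under E1A + oxaliplatin (19.3%). With E1A alone none of the 9 differed by edgeR (14.4% of genes, 0 members at an unadjusted p below 0.05), and DESeq2 called 1.

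Cyclin D1, the D-type cyclin with the highest level, was higher in the resistant line than in the parental line in 3 of the 4 treatments. In untreated HCT116, CCND1 was at 428, 439 and 489 CPM in the 3 replicates, and in untreated HCT116 oxpl-R at 832.5, 768.8 and 740.3 CPM. With E1A the values were 489.9, 480.4 and 398 CPM in HCT116 and 648, 516 and 545.5 CPM in HCT116 oxpl-R. The groups of the lines did not overlap in either setting, as in 6808 of 19452 genes in untreated cells and 5758 of 19452 with E1A. Under oxaliplatin CCND1 was at 399, 409.8 and 379 CPM in HCT116 and at 1330, 1208 and 1064 CPM in HCT116 oxpl-R. With E1A + oxaliplatin it was at 410.5, 319 and 374.5 CPM in HCT116 and at 860.5, 759 and 609 CPM in HCT116 oxpl-R. All 12 libraries of the resistant line thus lay above all 12 of the parental line. CCND1 was 1.73-fold higher in HCT116 oxpl-R in untreated cells (log2 0.79 ± 0.17, edgeR adjusted p = 0.00145), 3.03-fold under oxaliplatin (log2 1.60 ± 0.17, adjusted p = 2.31e-08) and 2.02-fold under E1A + oxaliplatin (log2 1.01 ± 0.17, adjusted p = 5.7e-05). With E1A alone the difference of 1.25-fold did not pass (log2 0.32 ± 0.17, adjusted p = 0.242), alternative settings aside. In that comparison filterByExpr and DESeq2 each called 1 of the members. The 3 calls that passed held in every alternative setting.

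Within HCT116 oxpl-R, CCND1 rose 1.54-fold with oxaliplatin (log2 0.62 ± 0.17, edgeR adjusted p = 0.022), with no overlap between the groups, as in 18.4% of genes. E1A added to oxaliplatin lowered it 1.62-fold (log2 -0.69 ± 0.17, adjusted p = 0.0279). In HCT116 the oxaliplatin value was -0.19 ± 0.17 (adjusted p = 0.534), and the difference of the oxaliplatin effect between the lines, 0.81 ± 0.24, did not pass (adjusted p = 0.0615). That difference passed under 3 alternatives, filterByExpr, the replicate block and DESeq2 (adjusted p = 0.0294, 0.0284 and 0.00847). Over all alternatives, those that did not pass included, its adjusted p ran from 0.00847 to 0.195. The rise lost its call without HCT116 oxpl-R control replicate 2 or 3 or oxaliplatin replicate 1 (log2 0.54 to 0.70 over the replicates left out), and the fall with E1A lost it without oxaliplatin replicate 1 or 2 or E1A + oxaliplatin replicate 2 or 3 (log2 -0.81 to -0.59). Both lost it when only the groups compared were fitted (adjusted p = 0.12 and 0.271), and the fall with E1A also with library totals only (adjusted p = 0.116).

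Cyclin D2, encoded at chr12:4269771-4305353, was close to absent from these libraries. CCND2 had 0 to 4 estimated counts per library, at most 0.141 CPM, and no count in 9 of the 24 libraries. Most libraries were thus at or below 3 counts, the limit that a count of 0 allows, so no fold change is given.

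Cyclin D3, another partner of CDK4 and CDK6, rose with oxaliplatin in the parental line, and its response differed between the lines. CCND3 (chr6:41934934-42050357, minus strand) was at 56.6, 55.5 and 72.1 CPM in untreated HCT116 and at 116, 99.02 and 127.5 CPM with oxaliplatin. In HCT116 oxpl-R it was at 51.96, 53.4 and 58.4 CPM in controls and at 38.6, 47.5 and 43.5 CPM with oxaliplatin. The groups were separate in both lines, with the treated group above in HCT116 and below in HCT116 oxpl-R. Such separation, in either direction, was found in 6421 of 19452 genes in HCT116 and 3574 of 19452 in HCT116 oxpl-R. With E1A the levels were 88.2, 94.6 and 83.3 CPM in HCT116 and 86.2, 64.1 and 70.9 CPM in HCT116 oxpl-R. With E1A + oxaliplatin they were 130.3, 106 and 97.8 CPM in HCT116 and 78.3, 63.4 and 85.1 CPM in HCT116 oxpl-R, above every oxaliplatin library of that line. The oxaliplatin groups of HCT116 oxpl-R without and with E1A did not overlap in 10.9% of genes. CCND3 rose 1.86-fold with oxaliplatin in HCT116 (log2 0.90 ± 0.17, edgeR adjusted p = 0.000536), while the value of -0.34 ± 0.17 in HCT116 oxpl-R did not pass (adjusted p = 0.337). The difference of the oxaliplatin effect between the lines was -1.24 ± 0.24 (adjusted p = 0.00334, 2.78% of genes called), and it held in every alternative setting.

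Under oxaliplatin, CCND3 was 2.65-fold lower in HCT116 oxpl-R than in HCT116 (log2 -1.40 ± 0.17, edgeR adjusted p = 2.42e-07), and under E1A + oxaliplatin 1.47-fold lower (log2 -0.56 ± 0.17, adjusted p = 0.019). The second of these lost its call without HCT116 E1A + oxaliplatin replicate 1 or HCT116 oxpl-R E1A + oxaliplatin replicate 2, and without both libraries that stand apart (log2 -0.43, adjusted p = 0.0849; over all alternatives 0.0012 to 0.141). It was also lost with library totals only and when only the groups compared were fitted (adjusted p = 0.0581 and 0.0683). E1A added to oxaliplatin in HCT116 oxpl-R raised CCND3 1.75-fold (log2 0.81 ± 0.17, adjusted p = 0.00771). This call was lost without E1A + oxaliplatin replicate 3 and when only the groups compared were fitted (adjusted p = 0.121). E1A alone gave log2 values of 0.53 ± 0.17 in HCT116 (adjusted p = 0.326) and 0.43 ± 0.17 in HCT116 oxpl-R (adjusted p = 0.726), neither of which passed. When only the groups compared were fitted, the CCND3 value in HCT116 was 0.49 and passed (edgeR adjusted p = 0.00472). In that setting 1559 of all genes were called, against 84 in the fit of all libraries.

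CDK4, the kinase of the D cyclins with the higher level, rose with oxaliplatin in the parental line. It was at 505, 486 and 568 CPM in untreated HCT116 and at 992, 915 and 650.2 CPM with oxaliplatin. The lowest of the treated values was that of replicate 3, one of the libraries that stand apart. The groups did not overlap, as in 6421 of 19452 genes. In HCT116 oxpl-R, CDK4 was at 464, 626 and 517 CPM in controls and at 556, 448 and 387 CPM with oxaliplatin, with overlap. With E1A it was at 510.5, 517 and 529.8 CPM in HCT116 and 586, 628 and 449 CPM in HCT116 oxpl-R. With E1A + oxaliplatin it was at 717, 794 and 774 CPM in HCT116 and at 490.2, 507 and 624 CPM in HCT116 oxpl-R, so every parental library treated with oxaliplatin, with or without E1A, lay above the highest of the resistant line. The rise in HCT116 was 1.64-fold (log2 0.71 ± 0.19, edgeR adjusted p = 0.00798), and 0.98 on the log2 scale without both libraries that stand apart (adjusted p = 9.45e-05). It lost its call without HCT116 control replicate 2, where the adjusted p was 0.0501, the highest of all alternatives. Under oxaliplatin CDK4 was 1.84-fold lower in HCT116 oxpl-R than in HCT116 (log2 -0.88 ± 0.19, adjusted p = 0.000571), a call that held in every setting.

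With E1A present, the CDK4 value for oxaliplatin in HCT116 was 0.55 ± 0.19 (edgeR adjusted p = 0.0654). None of the 9 members passed in that comparison (8.09% of genes called, 1 member at an unadjusted p below 0.05), whereas DESeq2 called 2 members, and CDK4 passed without the libraries that stand apart (log2 0.67, adjusted p = 0.011; 0.00418 to 0.211 over all alternatives). With all libraries CDK4 also passed there with RLE, filterByExpr, the length-scaled table and only the groups compared (adjusted p = 0.0348, 0.0173, 0.0344 and 0.024). The difference of the oxaliplatin effect between the lines for CDK4 was -0.92 ± 0.26 and did not pass (adjusted p = 0.053). Without the libraries that stand apart it was -1.21 and passed (adjusted p = 0.0011; 0.0011 to 0.155 over all alternatives). With all libraries it also passed with RLE, filterByExpr, the replicate block, the length-scaled table and DESeq2 (adjusted p = 0.0306, 0.0183, 0.04, 0.0218 and 0.00195). The difference between the lines under E1A + oxaliplatin, -0.49 ± 0.19, also fell short (adjusted p = 0.0628) and passed without those libraries (-0.54, adjusted p = 0.0303; 0.0107 to 0.208 over all alternatives). With all libraries it passed with RLE, filterByExpr, the length-scaled table and DESeq2 (adjusted p = 0.0416, 0.0248, 0.0287 and 0.0107).

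CDK6, the other kinase of the D cyclins, passed none of the 12 comparisons with all libraries, alternative settings aside. CDK6 (chr7:92604921-92836573, minus strand) was at 65.4, 76.2 and 62.2 CPM in untreated HCT116 and at 29.9, 37.99 and 78.5 CPM with oxaliplatin. The high value of the treated group was again replicate 3, which stands apart, and it lay above every control. In HCT116 oxpl-R the controls were at 64.0, 55.3 and 49.9 CPM and the oxaliplatin libraries at 42.5, 64.0 and 54.2 CPM, with overlap. The means with E1A were 56.7 ± 1.25 CPM in HCT116 and 40.1 ± 4.63 CPM in HCT116 oxpl-R, and with E1A + oxaliplatin 41.7 ± 2.82 and 44.95 ± 16.9 CPM (SD, n = 3 each). The oxaliplatin value in HCT116 was -0.48 ± 0.26 with all libraries (edgeR adjusted p = 0.234), and without both libraries that stand apart it was -0.91 (adjusted p = 0.0043), so there CDK4 was higher and CDK6 lower.

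Cyclin E1 passed no test with all libraries. CCNE1 was at 71.7, 79.3 and 85.2 CPM in untreated HCT116 and at 98.7, 109.7 and 59.9 CPM with oxaliplatin, where the lowest value was that of replicate 3, which stands apart. In HCT116 oxpl-R it was at 77.0, 92.7 and 84.3 CPM in controls and at 63.4, 81.3 and 68.7 CPM with oxaliplatin. The highest group mean was 90.3 ± 5.03 CPM (SD, n = 3), in HCT116 oxpl-R with E1A + oxaliplatin. The 18 log2 values of CCNE1 over comparisons and differences had unadjusted p of 0.0745 or more. Without both libraries that stand apart, CCNE1 was higher with oxaliplatin in HCT116 (log2 0.50, edgeR adjusted p = 0.0155) and lower in HCT116 oxpl-R than in HCT116 under oxaliplatin (log2 -0.62, adjusted p = 0.00254). The difference of the oxaliplatin effect between the lines then passed too (log2 -0.77, adjusted p = 0.0174).

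Cyclin E2, which shares the kinase of cyclin E1, was called lower with oxaliplatin in the resistant line, without a called difference from the response of the parental line, and rose there when E1A was added. Its SE in comparisons of groups, up to 0.43 on the log2 scale, was the largest of the 8 members with counts. CCNE2 (chr8:94879770-94896678, minus strand) was at 23.6, 23.5 and 22.3 CPM in untreated HCT116 and at 8.71, 11.5 and 14.0 CPM with oxaliplatin. In HCT116 oxpl-R it was at 26.8, 28.3 and 26.9 CPM in controls and at 3.64, 9.27 and 14.1 CPM with oxaliplatin. Every oxaliplatin library without E1A lay below every control of its line. Groups did not overlap, in either direction, in 6421 of 19452 genes in HCT116 and 3574 of 19452 in HCT116 oxpl-R. With E1A + oxaliplatin the values were 7.74, 26.7 and 39.6 CPM in HCT116, the lowest from a library that stands apart, and 50.5, 48.3 and 51.3 CPM in HCT116 oxpl-R. With E1A alone they were 22.3, 16.5 and 27.3 CPM in HCT116 and 11.6, 29.3 and 45.7 CPM in HCT116 oxpl-R, a range that spans the controls. In HCT116 oxpl-R CCNE2 fell 3.04-fold with oxaliplatin (log2 -1.60 ± 0.42, edgeR adjusted p = 0.0164) and rose 5.56-fold when E1A was added to oxaliplatin (log2 2.48 ± 0.43, adjusted p = 0.000822). The rise held in every setting, and the fall was lost without HCT116 oxpl-R oxaliplatin replicate 1, the lowest library (log2 -1.23).

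In HCT116 the CCNE2 value for oxaliplatin, -1.02 ± 0.42, did not pass (edgeR adjusted p = 0.0917), and without the libraries that stand apart it was -1.10 and passed (adjusted p = 0.0359; 0.0096 to 0.371 over all alternatives). It also passed with all libraries under the replicate block and when only the groups compared were fitted (adjusted p = 0.0277 and 0.0096). The difference of the oxaliplatin effect between the lines was -0.59 ± 0.58 and did not pass (adjusted p = 0.757). The change with E1A under oxaliplatin in HCT116, 1.11 ± 0.42, did not pass (adjusted p = 1.0), nor did the value of 1.64 without the libraries that stand apart (adjusted p = 0.21). The difference of this E1A effect between the lines was 1.36 ± 0.59 (adjusted p = 1.0), and 0.82 without those libraries. The E1A by oxaliplatin term in HCT116 oxpl-R was 2.40 ± 0.59 (adjusted p = 0.269), and neither that difference nor this term passed.

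CDK2, the kinase of the E cyclins, fell with oxaliplatin in the resistant line and was lower there than in the parental line under the drug. It was at 192, 201 and 216 CPM in untreated HCT116 and at 282, 250.3 and 179.5 CPM with oxaliplatin, where replicate 3 lay below every control. In HCT116 oxpl-R it was at 162, 177 and 177 CPM in controls and at 102.5, 114 and 132 CPM with oxaliplatin, without overlap, as in 18.4% of genes. With E1A the values were 238, 226 and 230.1 CPM in HCT116 and 204, 209 and 202.5 CPM in HCT116 oxpl-R. With E1A + oxaliplatin they were 237, 249 and 284 CPM in HCT116 and 171, 178 and 202 CPM in HCT116 oxpl-R, so adding E1A placed every treated library of the resistant line back above the oxaliplatin group. Those groups did not overlap in 10.9% of genes. CDK2 fell 1.48-fold with oxaliplatin in HCT116 oxpl-R (log2 -0.57 ± 0.16, edgeR adjusted p = 0.0298) and rose 1.58-fold when E1A was added (log2 0.66 ± 0.16, adjusted p = 0.0276). Both calls were fragile: the fall was lost without any of the control replicates or oxaliplatin replicate 1 or 2, the rise without oxaliplatin replicate 1 or 2 or any of the E1A + oxaliplatin replicates, and both when only the groups compared were fitted (adjusted p = 0.126 and 0.271).

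Between the lines, CDK2 was 2.04-fold lower in HCT116 oxpl-R under oxaliplatin (log2 -1.03 ± 0.16, edgeR adjusted p = 1.21e-05), a call that held in every setting. Under E1A + oxaliplatin it was 1.40-fold lower (log2 -0.48 ± 0.16, adjusted p = 0.0325), a call lost without HCT116 E1A + oxaliplatin replicate 3 or HCT116 oxpl-R E1A + oxaliplatin replicate 1 or 2. It was also lost with library totals only and when only the groups compared were fitted (adjusted p = 0.0647 and 0.0833; 0.00198 to 0.13 over all alternatives). The difference of the oxaliplatin effect between the lines was -0.79 ± 0.23 and did not pass (adjusted p = 0.0557), while without the libraries that stand apart it was -1.07 and passed (adjusted p = 0.000919; 0.000919 to 0.155 over all alternatives). With all libraries it also passed with RLE, filterByExpr, the replicate block and DESeq2 (adjusted p = 0.0326, 0.0102, 0.0412 and 0.000959).

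CDC25A, the phosphatase that activates CDK2, fell with oxaliplatin in the resistant line and rose there when E1A was added, and each of these effects differed from its counterpart in the other line. CDC25A (chr3:48157146-48188417, minus strand) was at 68.8, 74.8 and 84.0 CPM in untreated HCT116 and at 71.1, 74.3 and 50.3 CPM with oxaliplatin, the last from the library that stands apart. In HCT116 oxpl-R it was at 66.2, 76.7 and 72.3 CPM in controls and at 23.0, 21.7 and 21.7 CPM with oxaliplatin. These 3 libraries were the lowest of all 24. With E1A CDC25A was at 80.3, 88.2 and 86.6 CPM in HCT116 and at 80.3, 98.1 and 82.2 CPM in HCT116 oxpl-R, and with E1A + oxaliplatin at 77.7, 87.7 and 90.6 CPM in HCT116 and at 59.9, 59.5 and 65.7 CPM in HCT116 oxpl-R. The last group lay above the oxaliplatin group of its line and below its controls. The oxaliplatin groups of that line without and with E1A did not overlap in 10.9% of genes. CDC25A fell 3.24-fold with oxaliplatin in HCT116 oxpl-R (log2 -1.70 ± 0.17, edgeR adjusted p = 1.08e-08), and E1A added to oxaliplatin raised it 2.79-fold (log2 1.48 ± 0.17, adjusted p = 8.21e-07). Under oxaliplatin it was 2.95-fold lower in HCT116 oxpl-R than in HCT116 (log2 -1.56 ± 0.17, adjusted p = 1.43e-08). The 3 calls that passed held in every alternative setting.

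The tests of differences of effects bore on CDC25A most directly. The oxaliplatin effect differed between the lines by -1.48 ± 0.23 on the log2 scale (edgeR adjusted p = 0.000216), with -0.22 ± 0.16 in HCT116 and -1.70 ± 0.17 in HCT116 oxpl-R, and this held in every setting. Without both libraries that stand apart that difference was -1.76 and the HCT116 value 0.04. In HCT116 oxpl-R the E1A effect was 0.28 ± 0.16 without oxaliplatin and 1.48 ± 0.17 with it, a difference of 1.20 ± 0.23 (adjusted p = 0.036) in a test where 0.036% of genes were called. Under oxaliplatin the E1A effect was 1.09 ± 0.23 larger in HCT116 oxpl-R than in HCT116 (adjusted p = 0.0458, 0.134% of genes called), and 1.26 without the libraries that stand apart (adjusted p = 0.0035). Both calls were lost when single libraries were left out, 10 of 12 in the first test and 9 of 12 in the second, with log2 values of 1.12 to 1.29 and 1.02 to 1.24. Both were also lost with library totals only (adjusted p = 0.07 and 0.11) and when only the groups compared were fitted (adjusted p = 0.208 and 0.533), and the first with RLE (adjusted p = 0.0683). In the other 3 tests of differences edgeR called none of the 9 members: the E1A effect between the lines without oxaliplatin (0.0103% of genes called), E1A by oxaliplatin in HCT116 (0.0103%) and the oxaliplatin effect between the lines with E1A (0.195%). At an unadjusted p below 0.05 there were 0, 1 and 3 members, and DESeq2 called 0 in each. With E1A present, oxaliplatin in HCT116 oxpl-R gave a CDC25A value of -0.49 ± 0.16 (adjusted p = 0.113), and edgeR called none of the 9 members there (2.8% of genes called, 2 members at an unadjusted p below 0.05), whereas DESeq2 called 1. The member DESeq2 called was CDC25A (log2 -0.52, DESeq2 adjusted p = 0.0057). With filterByExpr, edgeR also called CDC25A there (log2 -0.52, adjusted p = 0.0297). The lines also differed in CDC25A under E1A + oxaliplatin, where it was 1.38-fold lower in HCT116 oxpl-R (log2 -0.47 ± 0.16, adjusted p = 0.0385), a call lost without HCT116 oxpl-R E1A + oxaliplatin replicate 1 or 2. That call was also lost with library totals only and when only the groups compared were fitted (adjusted p = 0.0932 and 0.103; 0.00187 to 0.135 over all alternatives).

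**Figure D2:**
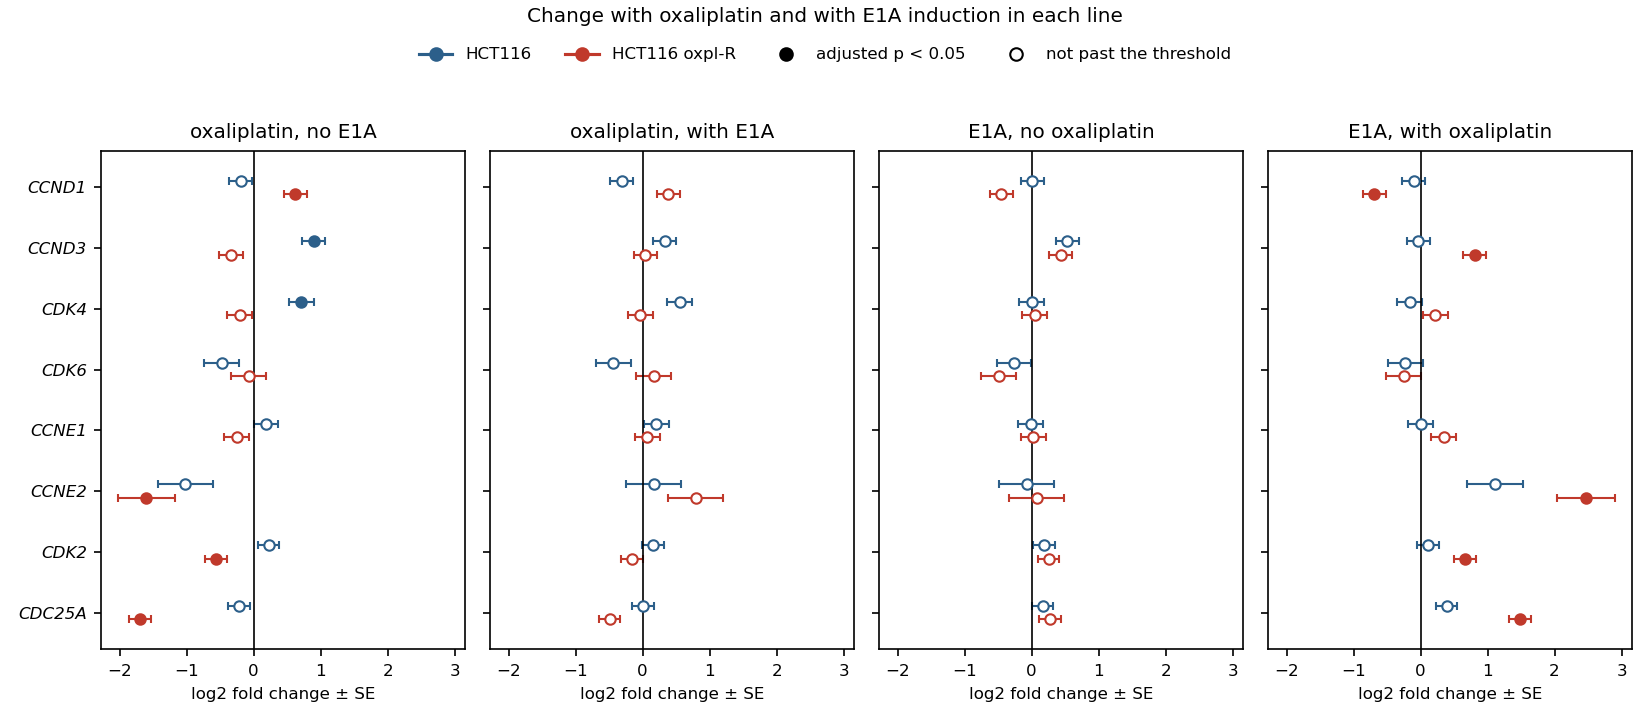
Log2 fold change ± SE of 8 members with oxaliplatin and with E1A, without and with the other agent, with parental cells in blue and resistant cells in red, filled where the adjusted p was below 0.05. In HCT116 oxpl-R, CCND1 rose and CCNE2, CDK2 and CDC25A fell with oxaliplatin, and each moved the other way when E1A was added to oxaliplatin.

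**Figure D3:**
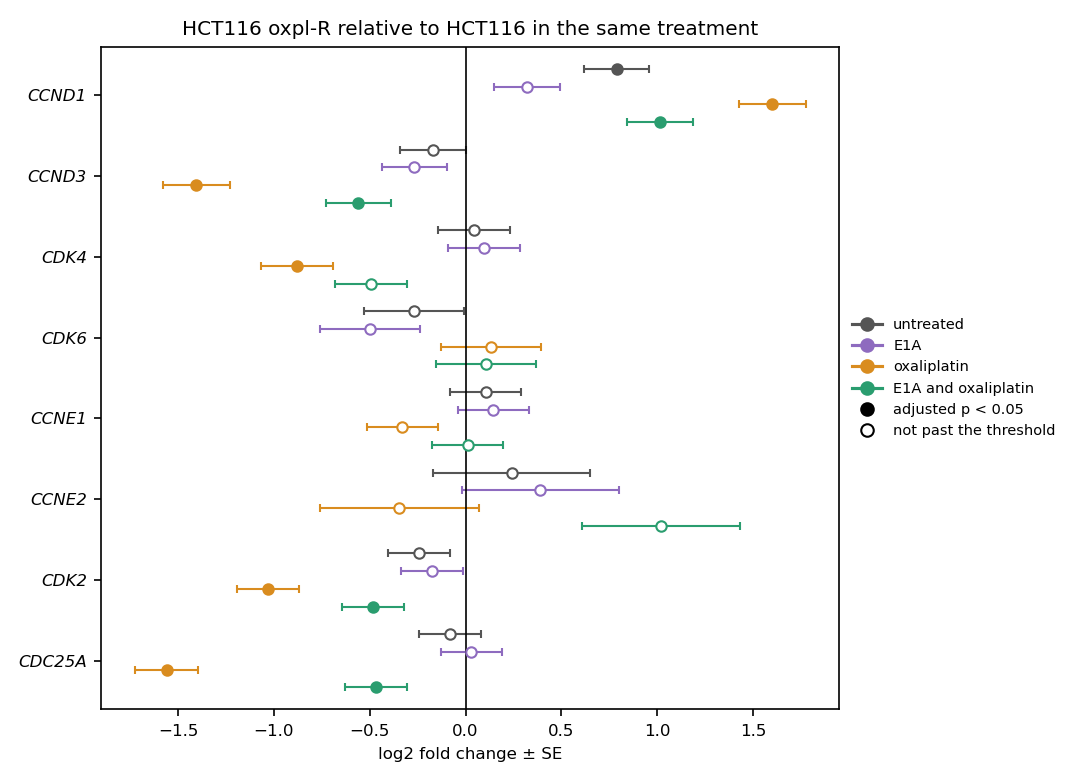
Log2 fold change ± SE of HCT116 oxpl-R relative to HCT116 in each of the 4 treatments, filled where the adjusted p was below 0.05. CCND1 is to the right of 0 in all 4, at 1.60 under oxaliplatin, and CCND3, CDK4, CDK2 and CDC25A lie between -0.88 and -1.56 under oxaliplatin.

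With the libraries that stand apart left out, oxaliplatin called 6 of 9 members in HCT116 against 2 with them, and the background rose from 17.4% to 26.2% of genes. The added members were CCNE1 (log2 0.50), CDK2 (log2 0.49, edgeR adjusted p = 0.0149), CCNE2 (log2 -1.10) and CDK6 (log2 -0.91). The difference of the oxaliplatin effect between the lines called 5 members in place of 2, with 9.84% of genes called. HCT116 oxaliplatin replicate 3 lay below all 3 controls in CCNE1, CDK2 and CDC25A and above them in CDK6. Both libraries were used under their labels as given. Whether each label matches its library was not tested, and the values of HCT116 with oxaliplatin that rest on them carry that limit.

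The comparisons share groups: the oxaliplatin libraries of HCT116 oxpl-R enter the comparison with controls, that with E1A and that with HCT116. The opposite signs of the first and the second therefore partly rest on the same 3 libraries. Set side by side, the changes with oxaliplatin and with E1A added to oxaliplatin in HCT116 oxpl-R were 0.62 and -0.69 for CCND1, -1.60 and 2.48 for CCNE2, -0.57 and 0.66 for CDK2, and -1.70 and 1.48 for CDC25A on the log2 scale.

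The genes around these members, in 7 lists of the pathway with 55 genes tested, were read by the same test. Among the inhibitors of cyclin-dependent kinases, 5 of 7 rose with oxaliplatin in HCT116, where 8.74% of all genes were called higher and 8.61% lower, and 1 rose and 1 fell in HCT116 oxpl-R, where 3.1% were called higher and 3.01% lower. The count of 5 went to 3 without HCT116 control replicate 1 or 2 or oxaliplatin replicate 1. CDKN1A, the p21 inhibitor of CDK2, rose from 144 ± 6.15 to 1878 ± 225 CPM in HCT116 (log2 3.70 ± 0.20, edgeR adjusted p = 5.97e-14) and from 567 ± 37.1 to 4149 ± 586 CPM in HCT116 oxpl-R (log2 2.87 ± 0.19, adjusted p = 1.14e-11). Its value with E1A added to oxaliplatin in HCT116 oxpl-R was -0.43 ± 0.18 (adjusted p = 0.37). CDKN2C, the p18 inhibitor of CDK4 and CDK6, fell with oxaliplatin in HCT116 oxpl-R from 19.5 ± 1.65 to 8.35 ± 2.16 CPM (log2 -1.22 ± 0.20, adjusted p = 0.000101) and rose to 27.5 ± 4.77 CPM with E1A (log2 1.72 ± 0.20, adjusted p = 2.6e-06). CDKN2A, the locus of the p16 inhibitor of CDK4 and CDK6, was at 44.8 ± 13.3 CPM in HCT116 oxpl-R and 215 ± 51.2 CPM in HCT116 under oxaliplatin (log2 -2.26 ± 0.22, adjusted p = 2.98e-09).

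Among the genes that E2F drives in S phase, 15 of 17 fell with oxaliplatin in HCT116 oxpl-R with none higher (median log2 -1.82, against 0.0 over all genes), and 9 of 17 fell in HCT116 with none higher (median -0.60). Of all genes, 3.01% were called lower in HCT116 oxpl-R and 8.61% in HCT116. When E1A was added to oxaliplatin in HCT116 oxpl-R, 13 of the 17 rose and none fell (median log2 1.26), where 1.29% of all genes were called higher. CDT1, which licenses replication origins, went from 102 ± 5.48 CPM in controls to 21.0 ± 5.32 CPM with oxaliplatin and 74.2 ± 17.1 CPM with E1A + oxaliplatin in HCT116 oxpl-R (log2 -2.28 and 1.82, edgeR adjusted p = 2.38e-09 and 8.21e-07). MYBL2, a transcription factor of the cell cycle, went from 178 ± 18.4 to 45.8 ± 8.73 and 143 ± 34.4 CPM (log2 -1.96 and 1.64). ORC1, a subunit of the origin recognition complex, went from 40.1 ± 5.57 to 7.63 ± 1.49 and 18.4 ± 2.78 CPM (log2 -2.39 and 1.27). The count in HCT116 depended on the setting, with 3 to 6 of 17 when one library was left out and 6 without both libraries that stand apart, while 14 or 15 were called lower in HCT116 oxpl-R and 12 to 15 higher with E1A. Between the lines under oxaliplatin, 14 of 17 were lower in HCT116 oxpl-R, where 25.6% of all genes were called in either direction, and 1 was higher.

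Among the pocket proteins and E2F factors, 4 of 11 fell with oxaliplatin in HCT116 oxpl-R and 5 of 11 in HCT116, with none higher in either. With E1A added to oxaliplatin in HCT116 oxpl-R 3 of 11 rose, where 1.29% of all genes were called higher. The count of 5 in HCT116 went to between 0 and 2 without any one library other than oxaliplatin replicate 3 and to 6 without that one, over a background of 8.61% of genes called lower. In HCT116 oxpl-R it was 4 without any one library, over a background of 3.01%. E2F1, an activating E2F, went from 95.8 ± 8.42 to 21.9 ± 2.33 and then 101 ± 17.7 CPM in HCT116 oxpl-R (log2 -2.13 and 2.20, edgeR adjusted p = 5.95e-10 and 1.11e-09), so its level with E1A + oxaliplatin was near that of controls. E2F2 and E2F8 rose with E1A by 1.53 and 1.47 on the log2 scale. Of the later cyclins and CDK1, 4 of 5 fell with oxaliplatin in HCT116 oxpl-R (median log2 -1.74, 3.01% of all genes called lower) and 3 of 5 in HCT116 (8.61%). With single libraries left out these counts were 3 to 4 and 2 to 3. With E1A added to oxaliplatin in HCT116 oxpl-R 2 of 5 rose, where 1.29% of all genes were called higher. Those that rose with E1A were CCNA2 (log2 1.31 ± 0.32, adjusted p = 0.0292) and CCNB2 (log2 1.11 ± 0.18, adjusted p = 0.00036), cyclins of S phase and mitosis, and that count was 1 to 3 over the alternatives.

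Of the other CDC25 and checkpoint genes, 2 of 5 fell with oxaliplatin in each line, where 8.61% of all genes were called lower in HCT116 and 3.01% in HCT116 oxpl-R. Without any one library the count was 0 or 1 in HCT116 and 2 to 4 in HCT116 oxpl-R. CDC25B, a relative of CDC25A, fell in HCT116 oxpl-R (log2 -0.86 ± 0.18, edgeR adjusted p = 0.00217) and gave 0.02 ± 0.18 in HCT116, and CDC25C fell in HCT116 (log2 -1.29 ± 0.40, adjusted p = 0.022) and gave -1.28 ± 0.40 in HCT116 oxpl-R (adjusted p = 0.0514). With E1A added to oxaliplatin in HCT116 oxpl-R CDC25B gave -0.19 ± 0.18, so among the CDC25 genes CDC25A was the one called. PKMYT1, a kinase that inhibits CDK1, was the 1 of 5 that rose there (log2 1.41 ± 0.20, adjusted p = 7.38e-05), where 1.29% of all genes were called higher. Of the 3 genes of the CDK-activating kinase, which phosphorylates CDK2 and CDK4, all fell with oxaliplatin in HCT116: CDK7 by 1.15, CCNH by 1.18 and MNAT1 by 1.14 on the log2 scale, with adjusted p of 0.0133, 0.0137 and 0.0298. The count went from 3 to 0 without oxaliplatin replicate 1 and to 1 without control replicate 1 or 2. In HCT116 oxpl-R none of the 3 passed with oxaliplatin in edgeR, at an unadjusted p below 0.05 or in DESeq2, at -0.45 ± 0.32, -0.15 ± 0.33 and 0.01 ± 0.36, with the lowest adjusted p at 0.572. Of the genes that turn over G1 cyclins and CDC25A, 5 of 7 fell with oxaliplatin in HCT116, among them FBXW11, part of the ubiquitin ligase for CDC25A (log2 -0.80 ± 0.18, adjusted p = 0.00239), and CUL3 (log2 -0.78 ± 0.19, adjusted p = 0.00553). That count went to between 0 and 3 without any one library other than oxaliplatin replicate 3 and to 6 without that one, over the same background of 8.61%. Their values in HCT116 oxpl-R, 0.15 ± 0.18 and -0.55 ± 0.19, did not pass.

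In the other 3 E1A comparisons edgeR called none of the 55 list genes. At an unadjusted p below 0.05 there were 5 in HCT116, 2 in HCT116 with oxaliplatin and 6 in HCT116 oxpl-R, and DESeq2 called 1, 0 and 1. The median log2 value of the 17 E2F target genes in these comparisons was 0.13, 0.15 and 0.20.

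**Figure D4:**
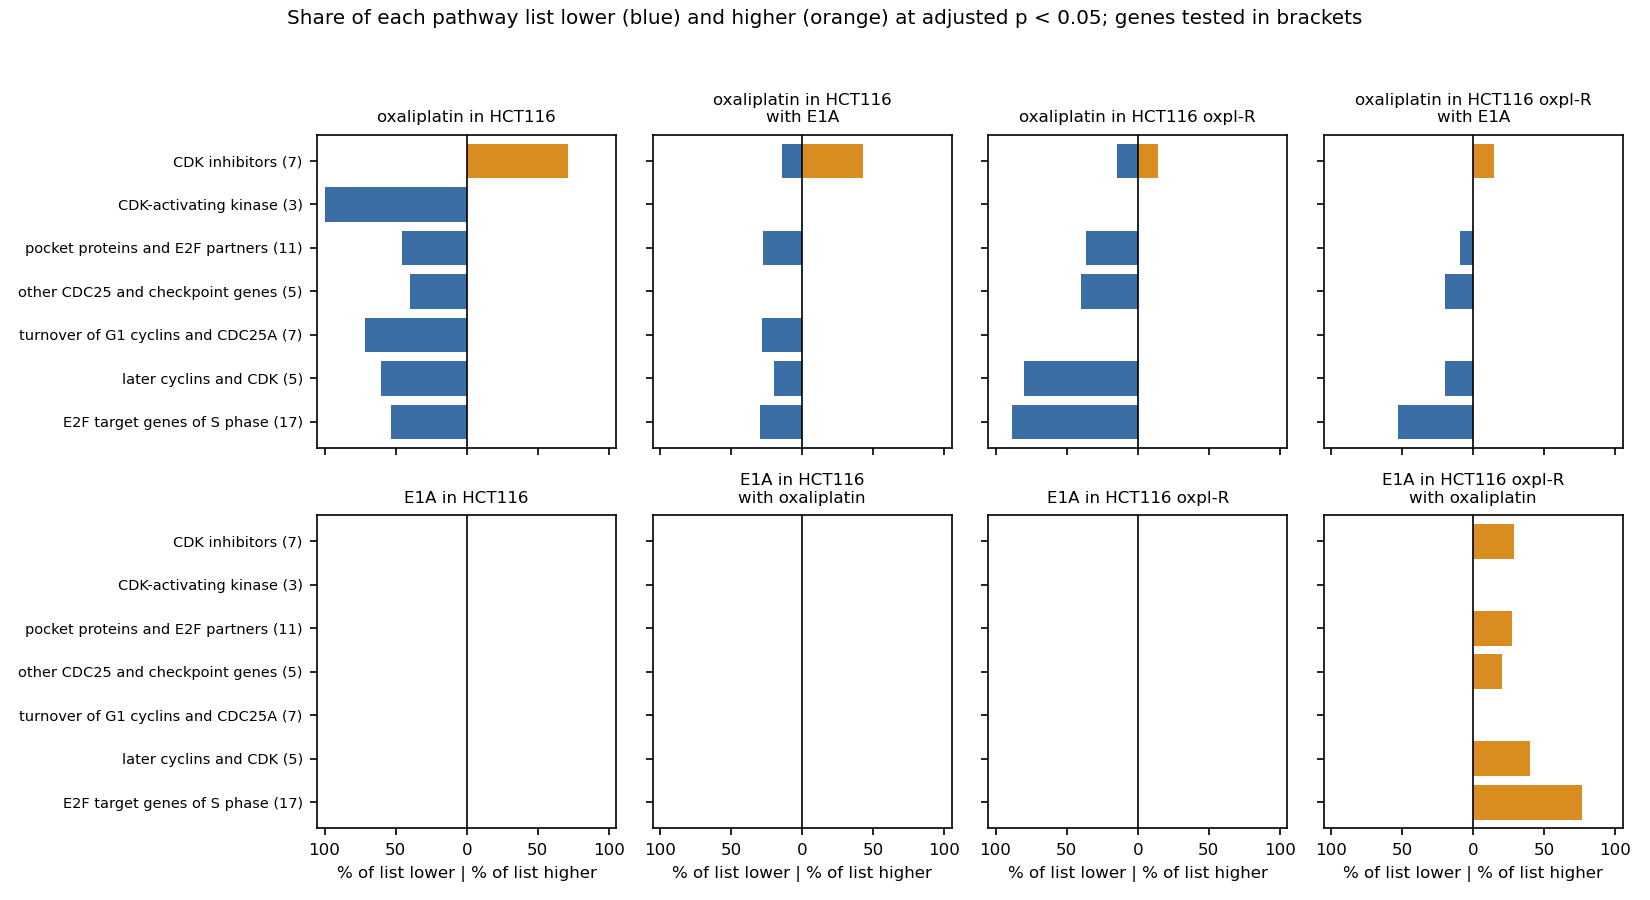
Share of the genes tested in each of 7 lists that were lower (blue, to the left) or higher (orange, to the right) at an adjusted p below 0.05, in each of the 8 comparisons of treatments within a line. The E2F target genes reach 15 of 17 lower with oxaliplatin in HCT116 oxpl-R and 13 of 17 higher with E1A added to oxaliplatin.

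The levels of some members ran in parallel over the 24 libraries, which share their groups and depth normalization, so the coefficients of log2(CPM + 1) are a description. CDK2 and CDC25A had a Pearson r of 0.86 and CDK2 and CCND3 one of 0.79, while CCND1 ran opposite to CDK2 (r = -0.89), CCND3 (r = -0.78) and CDC25A (r = -0.75). Of 11097 genes with enough counts, the one most like CDC25A was AUNIP (r = 0.949), a factor of DNA repair and the spindle pole, followed by GINS3 (r = 0.945), and AUNIP was also the one most like CDK2 (r = 0.942). CCNE2 was most like RAD51AP1 (r = 0.904), followed by GMNN (r = 0.888) and PRIM1 (r = 0.879). CCND1 was most like ALDH1A3 (r = 0.962), CCND3 like C1QL1 (r = 0.953), CDK4 like RPS19BP1 (r = 0.947), CDK6 like PAN3 (r = 0.938) and CCNE1 like CHCHD1 (r = 0.896).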

How the data were processed

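Per the study's methods and the submitters' processing notes, paired reads of polyadenylated RNA (Illumina NovaSeq X) were trimmed with Trimmomatic, quantified with Salmon 1.6.0 on GRCh38 and summed per gene with tximport. The deposited table holds estimated counts per gene that are not normalized, of which 15.9% to 30.4% per library are not whole numbers. A second table deposited by the authors, named for TPM, also holds expected counts, scaled by length. Both tables are alphabetical and end early, at 33113 genes (SETP6) and 37967 genes (TSC22D3), and later symbols were not analysed here. No column was left unmapped.

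Counts were rounded and fitted in edgeR 4.0.16 (R 4.3.3) by quasi-likelihood with TMM normalization, in 1 fit of all 24 libraries and 8 group means, after genes at 0 in all libraries were dropped, which left 19452. P-values were adjusted by the Benjamini-Hochberg method within each of 12 comparisons and 6 differences of effects. Values were tested on simulated data before use. The members and the gene lists were chosen with earlier results of these data known. All members are named, and of each list at most 3 genes with the largest change among those with a mean of at least 10 counts. Lengths and positions come from the GENCODE annotation on GRCh38, promoters from RefSeq (GRCh38.p14). Alternatives were RLE normalization, library totals only, DESeq2 1.42.0, a filter on low counts (filterByExpr), only the groups compared, a replicate block, the length-scaled table, another length, and each library left out in turn.

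The titles number replicates 1 to 3 in every group without saying that a number marks a shared culture. Deviations of same-numbered libraries correlated above 0.1 in all 3 pairs for HCT116 oxpl-R against HCT116 under oxaliplatin (0.14 to 0.25) and for oxaliplatin in HCT116 oxpl-R with E1A (0.42 to 0.53).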

Additional observations from a re-analysis of the deposited data

Results flagged for a closer look

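A total of 4 member values were singled out because a test of the difference of effects itself passed in edgeR's quasi-likelihood test. The oxaliplatin effect in HCT116 oxpl-R minus that in HCT116 was -1.24 on the log2 scale for CCND3 (adjusted p = 0.00334) and -1.48 for CDC25A (adjusted p = 0.000216). Both kept their call in every alternative, and the 3 treated libraries lay below the 3 controls in HCT116 oxpl-R for both genes. In that comparison the groups did not overlap in 18.4% of genes, and for CCND3 the fall itself did not pass (adjusted p = 0.337). CDC25A responded to E1A by 1.20 more with oxaliplatin than without it in HCT116 oxpl-R (adjusted p = 0.036, 2.17e-05 to 0.218 over all alternatives). This call was kept only without HCT116 oxpl-R E1A replicate 2 or HCT116 oxpl-R oxaliplatin replicate 1 among the 12 libraries left out in turn. Under oxaliplatin CDC25A responded to E1A by 1.09 more in HCT116 oxpl-R than in HCT116 (adjusted p = 0.0458, 8.63e-05 to 0.533 over all alternatives), a call kept without HCT116 oxaliplatin replicate 3, HCT116 E1A + oxaliplatin replicate 1 or HCT116 oxpl-R oxaliplatin replicate 1 and lost without any of the other 9.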

How the results depend on the processing

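The 48 member values compared were those with an unadjusted p below 0.05 before any alternative, CCND2 left out. None of these values, which were thus chosen away from 0, reversed direction, and 13 of the 25 that were called kept their call in every alternative. Outside this choice, CDC25A with oxaliplatin in HCT116 went from -0.22 to 0.04 on the log2 scale without both libraries that stand apart. Counts of members called moved as follows. For oxaliplatin in HCT116 the count went from 2 to 6 without both libraries that stand apart, and ranged from 1 to 4 with single libraries left out. For oxaliplatin in HCT116 with E1A it went from 0 to 1 with RLE, filterByExpr, the length-scaled table, only the groups compared or without those libraries, and to 2 with DESeq2 (0 to 1 with single libraries left out). For oxaliplatin in HCT116 oxpl-R it went from 4 to 2 with only the groups compared (1 to 4), and with E1A present from 0 to 1 with filterByExpr or DESeq2 (0 to 0). For E1A the count went from 0 to 1 in HCT116 and from 5 to 2 in HCT116 oxpl-R with oxaliplatin with only the groups compared (0 to 0 and 2 to 5). Between the lines it went from 0 to 1 with E1A under filterByExpr or DESeq2, and under E1A + oxaliplatin from 4 to 2 with library totals only and to 1 with only the groups compared (1 to 5), while it was 5 to 6 under oxaliplatin and 1 in untreated cells with single libraries left out. For the difference of the oxaliplatin effect between the lines the count went from 2 to 4 with RLE and to 5 with filterByExpr, DESeq2, the replicate block or without both libraries that stand apart (2 to 4). For E1A by oxaliplatin in HCT116 oxpl-R it went from 1 to 0 with RLE, library totals only or only the groups compared, and for the E1A effect between the lines under oxaliplatin from 1 to 0 with library totals only or only the groups compared (0 to 1 in both). The cause of these shifts was not tested.

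Where all 3 same-numbered pairs correlated above 0.1, the replicate block left the counts at 5 members (HCT116 oxpl-R against HCT116 under oxaliplatin) and 0 (oxaliplatin in HCT116 oxpl-R with E1A). In the other comparisons not all pairs did, with 0 to 5 of 6 libraries nearest to their own number. The 5 of 6 were for oxaliplatin in HCT116 oxpl-R, with r of 0.08, 0.47 and 0.55, so a shared culture there was neither shown nor excluded. The replicate block moved E1A by oxaliplatin in HCT116 oxpl-R from 1 to 2 members, adding CCNE2 (log2 2.72, adjusted p = 0.0355), and the difference of the oxaliplatin effect from 2 to 5, adding CCND1, CDK2 and CDK4 (adjusted p = 0.0284, 0.0412 and 0.04). CCNE2 also passed under the replicate block for oxaliplatin in HCT116 (log2 -1.09, adjusted p = 0.0277) and between the lines under E1A + oxaliplatin (log2 1.20, adjusted p = 0.0142).

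Over all genes, the calls for oxaliplatin in HCT116 went from 3375 to 5060 without both libraries that stand apart, and those for the difference of the oxaliplatin effect from 540 to 330 with library totals only and to 1901 without those libraries. With DESeq2 or only the groups compared the calls were 2518 against 1574 for oxaliplatin in HCT116 with E1A, 692 to 1793 against 1188 in HCT116 oxpl-R, 357 to 944 against 545 with E1A there, 107 to 546 against 270 for E1A in HCT116 oxpl-R with oxaliplatin, and 3380 against 4985 and 4737 against 2747 between the lines with and without oxaliplatin. For E1A in HCT116 they were 51 (length-scaled table) to 1559 (only the groups compared) against 84, with oxaliplatin 4 to 23 against 17, in HCT116 oxpl-R 13 to 119 against 44, and for the differences of effects 0 to 36 against 7, 2 to 85 against 26, 13 to 159 against 38, 0 to 8 against 2 and 1 to 3 against 2. The share of calls that were higher moved with the scaling from 42.1% to 59.5% (RLE) for oxaliplatin in HCT116 with E1A, from 46.4% to 59.6% (library totals) between the lines with E1A, and with RLE from 31.1% to 20.8% and from 78.9% to 58.3% for the difference of the oxaliplatin effect without and with E1A. With 3 replicates a group, these libraries limit the precision by their spread and not by counting error, except for CCND2.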
